A study of Mus musculus with 12 samples.

Results

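The genes described here encode the enzymes and carriers of glycolysis, the pentose phosphate pathway and lactate exchange in inguinal white adipose tissue (iWAT) of mice. A list of 35 genes was taken, from the glucose transporters Slc2a1 and Slc2a4 to the pentose phosphate enzymes Tkt and Taldo1. Of these, 34 have a row among the 14159 genes of the deposited normalized counts, and 33 were among the 13404 genes tested, whose mean over all 12 libraries reached 10 normalized counts. Mpc1, a subunit of the mitochondrial pyruvate carrier, has no row and was not analysed here. Aldoc, the brain form of aldolase, was under the filter, at 3.22 to 11.6 normalized counts.

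PolyA RNA libraries of whole iWAT formed 4 groups of 3 biological replicates, numbered 0 to 2 in the labels: Atf4WT and Atf4AKO mice kept at room temperature (RT) or exposed to cold for 24 h. In Atf4AKO mice the floxed Atf4 alleles are removed by Adipoq-Cre, which is active in adipocytes, so that other cells of the tissue keep Atf4. The Atf4WT controls were littermates with the same floxed alleles (Atf4 fl/fl), and all mice were on a C57BL/6 background. The labels give no age for these libraries. The totals on listed genes were 25719476 to 29105147 reads per library. Atf4, the targeted gene, was at 4107 to 7644 normalized counts in the 6 Atf4WT libraries and 788 to 1639 in the 6 Atf4AKO libraries. Markers of adipocytes were present in all libraries, 7 of 7 at a mean log2 value of 15.80 to 16.44. Markers of skeletal muscle (7 of 12 listed), given as a mean log2 value, stood at 12.65 in Atf4WT RT replicate 2, 11.10 in Atf4WT cold replicate 0 and 7.96 in Atf4AKO cold replicate 1, against 3.40 to 4.84 in the other 9 libraries. Markers of B cells (9 of 10 listed) stood at 8.43 to 10.21 in Atf4WT cold iWAT and 3.10 to 4.77 in Atf4AKO cold iWAT, and at 8.43 in Atf4WT RT replicate 2. Markers of T cells (11 of 12 listed) stood at 6.07 to 9.14 in Atf4WT cold iWAT and 3.63 to 5.11 in Atf4AKO cold iWAT, and those of macrophages (7 of 8 listed) at 8.72 and 7.82 in the replicate 1 libraries of Atf4WT and Atf4AKO cold iWAT, against 9.88 to 10.69 in the other 10.

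Glycolysis breaks glucose down to pyruvate in the cytosol and yields ATP and NADH. Lactate dehydrogenase interconverts pyruvate and lactate, and monocarboxylate transporters move lactate across the plasma membrane, while the mitochondrial pyruvate carrier brings pyruvate to the tricarboxylic acid cycle. The pentose phosphate pathway branches off at glucose 6-phosphate: its oxidative arm makes NADPH and ribulose 5-phosphate, and its non-oxidative arm returns pentoses to glycolysis or supplies ribose for nucleotides. White adipocytes take up glucose in response to insulin and use it for lipid synthesis and glycerol phosphate, and thermogenic adipocytes are known for a high glucose uptake in the cold.

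Promoters of 4 members, chosen with their values known, are shown because they set genes that rose with cold exposure (Pgk1, Slc16a1 and Ldhb) beside the abundant paralogue of Ldhb that did not pass the test (Ldha), and because the core letters of the hypoxia response element, ACGTG, are a motif of many glycolytic promoters. Each line gives the 250 bases before the transcription start in RefSeq (GRCm38.p6), 5′ to 3′ on the strand of the gene, with ACGTG on either strand in capitals. Where the letters of both strands overlap they read as one run of capitals. The Pgk1 sequence is chrX:106186850-106187099 on the plus strand, the Slc16a1 sequence chr3:104638414-104638663 on the plus strand, the Ldhb sequence chr6:142507958-142508207 on the minus strand and the Ldha sequence chr7:46845554-46845803 on the plus strand. The GENCODE entry of Ldha, given below, begins upstream of this RefSeq start.
Pgk1: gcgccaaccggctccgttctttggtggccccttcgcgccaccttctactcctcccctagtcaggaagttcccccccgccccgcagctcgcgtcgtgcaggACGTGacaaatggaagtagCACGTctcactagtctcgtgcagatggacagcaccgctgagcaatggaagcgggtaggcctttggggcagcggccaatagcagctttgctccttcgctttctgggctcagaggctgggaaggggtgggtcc
Slc16a1: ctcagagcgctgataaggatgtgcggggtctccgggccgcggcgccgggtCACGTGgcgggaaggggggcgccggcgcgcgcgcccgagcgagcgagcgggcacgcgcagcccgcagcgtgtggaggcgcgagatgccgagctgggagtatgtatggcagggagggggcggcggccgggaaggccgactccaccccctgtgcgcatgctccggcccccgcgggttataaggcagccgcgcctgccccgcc
Ldhb: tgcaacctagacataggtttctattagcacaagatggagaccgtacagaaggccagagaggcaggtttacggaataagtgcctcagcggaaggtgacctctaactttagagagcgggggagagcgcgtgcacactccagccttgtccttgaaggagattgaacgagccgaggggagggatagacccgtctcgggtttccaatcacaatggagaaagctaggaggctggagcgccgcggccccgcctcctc
Ldha: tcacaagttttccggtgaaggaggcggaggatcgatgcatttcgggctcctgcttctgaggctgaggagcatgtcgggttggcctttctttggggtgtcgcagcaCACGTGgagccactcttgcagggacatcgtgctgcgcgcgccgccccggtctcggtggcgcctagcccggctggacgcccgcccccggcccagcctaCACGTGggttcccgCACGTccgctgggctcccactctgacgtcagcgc
The Pgk1 sequence holds the motif at 2 separate places, the Slc16a1 sequence at 1 and the Ldha sequence at 3, whereas the Ldhb sequence holds it at 0. Over windows of 300 bases, from 250 before to 50 after the start, 17 of the 33 members with a window held ACGTG on either strand (51.5%), against 28.2% of the 11234 listed genes with a window. Among the 15 members that were higher after cold exposure in both genotypes, given below by name, 6 held it. That is a smaller share than the 17 of all 33 members, and the difference was not tested. The core letters of the cAMP response element, TGACG on either strand, which can share letters with ACGTG, were held by 8 of 33 members (24.2%) and 33.2% of the listed genes. The core of the C/EBP-ATF response element, TGATGNAA on either strand, was held by 0 of 33 members and by 2.82% of the listed genes. These are counts of letters in windows, and binding was not measured.

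Whether cold exposure changed this pathway was asked in each genotype by comparing cold with RT. In Atf4WT iWAT, 16 of 33 members rose (48.5%), where 17% of all tested genes did, and 1 fell (H6pd), where 14.9% of all genes did. In Atf4AKO iWAT, 16 members rose (48.5%, against 14.8% of all genes) and 2 fell (Hk1 and H6pd; 11% of all genes). Calls are Benjamini-Hochberg adjusted p-values under 0.05 in limma, over all 13404 genes. The 15 members higher in both genotypes were Hk2, Gpi1, Pfkp, Pfkfb1, Pfkfb3, Aldoa, Tpi1, Pgk1, Pgam1, Eno1, Ldhb, Slc16a1, Mpc2, Pgls and Rpia, which is 93.8% of the members called higher in each genotype and 45.5% of the members tested, where 11.3% of all genes were higher in both. Both comparisons are within a genotype and share no library. Their p-values share 1 estimate of the spread per gene, from all 4 groups, so the calls are not independent. In whole tissue, more RNA of a gene per cell cannot be told apart from more cells of a type that expresses it. Markers of fibroblasts (4 of 4 listed) had a mean log2 value of 11.83 to 13.37 in the cold-exposed libraries and 13.78 to 14.35 in the RT libraries, and their part in the cold response of the members was not tested. The median log2 fold change of the members was 0.50 in Atf4WT and 0.53 in Atf4AKO iWAT, against 0.0026 and -0.032 over all tested genes. In 14 of 33 members all 6 cold-exposed libraries lay above all 6 RT libraries, which held for 13.3% of all tested genes, and in 1 member, H6pd, all lay below (11.4%). The members together took 1.43 to 2.10% of the normalized counts at RT and 2.20 to 2.48% after cold exposure. At the threshold of the study for differentially expressed genes (fold change over 1.5 and unadjusted p under 0.05), 13 members were higher in Atf4WT iWAT (10.9% of all genes) and 12 in Atf4AKO iWAT (8.3%), with 1 (10.3%) and 0 (8.92%) lower. The count of members that rose in Atf4WT iWAT was 10 without Atf4WT RT replicate 2 (14.2% of all genes rose), 10 without Atf4WT cold replicate 1 (11.5%) and 10 without the pair of libraries of highest muscle score (12.6%), and the count in Atf4AKO iWAT was 10 without Atf4AKO cold replicate 2 (11.4%). The count that fell in Atf4WT iWAT was 2 without Atf4WT cold replicate 2 (11.7% of all genes), and in Atf4AKO iWAT it was 1 without Atf4AKO RT replicate 0 (6.24%), cold replicate 1 (7.24%) or cold replicate 2 (8.67%). Without the pair of libraries of highest muscle score, Pfkl, Pfkfb1, Pfkfb3, Aldoa, Tpi1 and Eno1 lost their call in Atf4WT iWAT (adjusted p = 0.0932 to 0.279) and Gapdh lost it in Atf4AKO iWAT (adjusted p = 0.0525). With the lymphocyte score as a covariate, Hk2, Pfkl, Pfkfb1 and Aldoa lost it in Atf4WT iWAT (adjusted p = 0.05 to 0.0747) and Gapdh and Eno1 in Atf4AKO iWAT (adjusted p = 0.0504 to 0.0567). The log2 fold changes in Atf4WT iWAT were then higher, 1.20 for Hk2 (in place of 0.80), 0.77 for Pfkl (0.50), 0.58 for Pfkfb1 (0.41) and 0.98 for Aldoa (0.70). In Atf4AKO iWAT they were lower, 0.56 for Gapdh (0.61) and 0.55 for Eno1 (0.62). Over all tested genes, 10.1% rose and 3.51% fell in Atf4WT iWAT with this covariate, in place of 17% and 14.9%. In Atf4AKO iWAT 15.1% of all tested genes rose and 11.5% fell with it, in place of 14.8% and 11%.

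**Figure D1:**
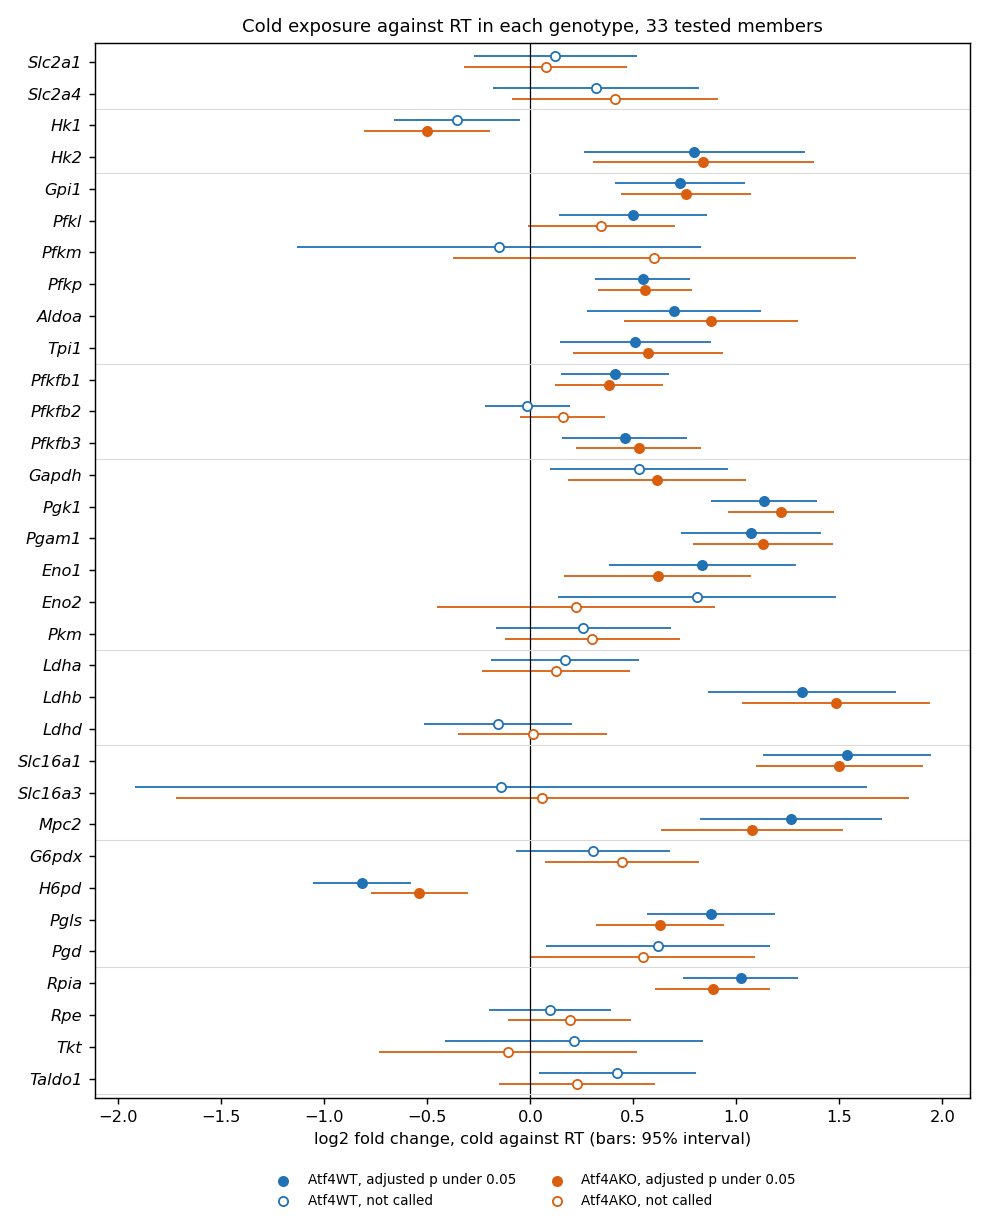
Log2 fold change of cold exposure against RT (x axis) for the 33 tested members (y axis, in the order of the pathway, with lines between roles), with points for the estimate and bars for the 95% interval. Atf4WT is blue and Atf4AKO orange, and filled points mark an adjusted p under 0.05. Slc16a1, Ldhb, Mpc2, Pgk1 and Pgam1 lie above 1 in both genotypes, H6pd lies below 0 in both, and the bars of Pfkm and Slc16a3 are the widest.

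Levels between genes can be compared only per length, here as normalized counts per kilobase of merged GENCODE exons. The length merges the exons of all annotated transcripts and can exceed that of the RNA expressed. The order of genes on this scale therefore depends on the annotation. On this scale Ldha was the highest of the 33 members with an exon length in Atf4WT iWAT at RT, at 13701 ± 2022 (SD, n = 3), followed by Gapdh at 9780.5 ± 1370.0, Taldo1 at 9072 ± 2007 and Tkt at 8681 ± 3072. Gapdh, Taldo1 and Tkt did not differ beyond their spread. Aldoa has more than one gene entry in the annotation and got no length. Pgk1 stood at 2835 ± 328, Mpc2 at 1029 ± 279.6 and Slc16a1 at 516 ± 108 on the same scale. The lowest were Slc16a3 at 22 ± 28.1, Eno2 at 17.6 ± 4.59 and Aldoc at 2.47 ± 1.15. Exons of 15 members overlap another gene in the annotation, and the strand setting of the counting is not given in the sources used here.

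Of the glucose transporters, neither passed the test in either genotype. Slc2a4, which encodes the insulin-responsive GLUT4, was at 12269, 13271 and 7640.0 in Atf4WT iWAT at RT and 12564, 13783 and 13985 after cold exposure, and at 12713, 14222 and 8616 at RT and 12576, 17302 and 16889.7 after cold exposure in Atf4AKO iWAT. Slc2a4 had a log2 fold change of 0.32 ± 0.23 in Atf4WT iWAT (adjusted p = 0.306) and 0.41 ± 0.23 in Atf4AKO iWAT (adjusted p = 0.205). Slc2a1, which encodes the basal transporter GLUT1, was at 324 to 447 normalized counts at RT and 357 to 562 after cold exposure, with a log2 fold change of 0.12 ± 0.18 in Atf4WT iWAT (adjusted p = 0.636) and 0.074 ± 0.18 in Atf4AKO iWAT (adjusted p = 0.791). In both genes the ranges of the groups overlapped.

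Of the hexokinases, which trap glucose as glucose 6-phosphate, Hk2 rose in both genotypes and Hk1 fell in Atf4AKO iWAT. Gene positions are those of GENCODE M21 on mm10. Hk2, the insulin-regulated hexokinase of muscle and fat (chr6:82725025-82774454, minus strand), was at 4764, 6074 and 3419 in Atf4WT iWAT at RT and 6174, 10726 and 7818 after cold exposure. It was at 4696, 5288 and 3924 at RT and 6705, 10271 and 8119 after cold exposure in Atf4AKO iWAT, so that all 6 cold-exposed libraries lay above all 6 RT libraries. For Hk2 the log2 fold change was 0.80 ± 0.24 in Atf4WT iWAT (adjusted p = 0.0289) and 0.84 ± 0.24 in Atf4AKO iWAT (adjusted p = 0.0275). Its call was lost without Atf4WT RT replicate 0 or 2 or Atf4WT cold replicate 1 or 2 (adjusted p = 0.0625 to 0.109) and without Atf4AKO RT replicate 0 or 2 or Atf4AKO cold replicate 1 or 2 (adjusted p = 0.0616 to 0.102). Hk1, the housekeeping hexokinase, was at 822, 986 and 925 in Atf4WT iWAT at RT and 565, 756 and 841 after cold exposure, where the groups overlapped at 822 and 841. It was at 921, 784 and 805 at RT and 619.7, 556 and 596 after cold exposure in Atf4AKO iWAT, without overlap. Hk1 had a log2 fold change of -0.35 ± 0.14 in Atf4WT iWAT (adjusted p = 0.0736) and -0.50 ± 0.14 in Atf4AKO iWAT (adjusted p = 0.0231). The fall in Atf4AKO iWAT was lost without Atf4AKO RT replicate 0 or Atf4AKO cold replicate 1 or 2 (adjusted p = 0.0525 to 0.0896), and the difference between the genotypes in this response was not called (interaction adjusted p = 0.996).

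In upper glycolysis, 5 of 6 tested members rose in Atf4WT iWAT (17% of all tested genes did) and 4 in Atf4AKO iWAT (14.8%). Gpi1, which turns glucose 6-phosphate into fructose 6-phosphate (chr7:34201330-34230336, minus strand), was at 10635, 12053 and 9286 in Atf4WT iWAT at RT and 17199, 17964 and 17462 after cold exposure. It was at 13827, 12503 and 9463 at RT and 18650.2, 18847 and 22467 after cold exposure in Atf4AKO iWAT, and all 6 cold-exposed libraries lay above all 6 RT libraries. For Gpi1 the log2 fold change was 0.73 ± 0.14 in Atf4WT iWAT (adjusted p = 0.00376) and 0.76 ± 0.14 in Atf4AKO iWAT (adjusted p = 0.00361), a 1.65-fold and 1.69-fold increase. Phosphofructokinase, the committed step, has 3 isoforms in the list. Pfkp, the platelet type, was at 2401 to 3319 at RT and 3651 to 4206 after cold exposure, with a log2 fold change of 0.54 ± 0.10 in Atf4WT iWAT (adjusted p = 0.00313) and 0.56 ± 0.10 in Atf4AKO iWAT (adjusted p = 0.00332). Pfkl, the liver type, was at 5374, 6123 and 4334 in Atf4WT iWAT at RT and 6910.2, 7906 and 7345 after cold exposure. Its log2 fold change was 0.50 ± 0.16 in Atf4WT iWAT (adjusted p = 0.0377) and 0.35 ± 0.16 in Atf4AKO iWAT (adjusted p = 0.142), and the call was lost without Atf4WT RT replicate 0 or 2 or Atf4WT cold replicate 0, 1 or 2 (adjusted p = 0.0533 to 0.129). The cold response of Pfkl was not called as different between genotypes (interaction adjusted p = 0.996).

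Aldoa, the main aldolase of muscle and most tissues, was at 66657, 84383 and 67243 in Atf4WT iWAT at RT and 130002, 125860.2 and 98228 after cold exposure. It was at 84893, 80699 and 58228 at RT and 130199.8, 131681 and 143664 after cold exposure in Atf4AKO iWAT, and all 6 cold-exposed libraries lay above all 6 RT libraries. Aldoa had a log2 fold change of 0.70 ± 0.19 in Atf4WT iWAT (adjusted p = 0.0187) and 0.88 ± 0.19 in Atf4AKO iWAT (adjusted p = 0.00747), and the former call was lost without Atf4WT RT replicate 0 or 2 or Atf4WT cold replicate 0 or 1 (adjusted p = 0.0534 to 0.066). Tpi1, which interconverts the triose phosphates, was at 14239.7 to 21775 at RT and 21749 to 28532 after cold exposure, ranges that overlapped by 1 library on each side. Its log2 fold change was 0.51 ± 0.17 in Atf4WT iWAT (adjusted p = 0.0364) and 0.57 ± 0.17 in Atf4AKO iWAT (adjusted p = 0.0275), and the calls were lost without Atf4WT RT replicate 0, 1 or 2 or Atf4WT cold replicate 0 or 1 (adjusted p = 0.056 to 0.121) and without Atf4AKO RT replicate 0 or 2 or Atf4AKO cold replicate 0, 1 or 2 (adjusted p = 0.0509 to 0.0843).

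Pfkm, the muscle type of phosphofructokinase, was at 1119, 1304 and 4991 in Atf4WT iWAT at RT and 2392, 1546 and 1430.5 after cold exposure. The highest values were those of the libraries with the highest muscle score, 4991 in Atf4WT RT replicate 2 and 2392 in Atf4WT cold replicate 0. In Atf4AKO iWAT it was at 1054, 1249.6 and 1019.6 at RT and 1432, 1939 and 1696 after cold exposure, without overlap. For Pfkm the log2 fold change was -0.15 ± 0.45 in Atf4WT iWAT (adjusted p = 0.821) and 0.60 ± 0.45 in Atf4AKO iWAT (adjusted p = 0.343). This standard error is pooled over all 4 groups, Atf4WT RT replicate 2 included. Without Atf4WT RT replicate 2 the log2 fold change in Atf4WT was 0.53 and without the pair of libraries of highest muscle score it was 0.30, both not called. Of the other muscle forms, Eno3 (enolase of muscle) was at 5798 and 1958 and Pgam2 (phosphoglycerate mutase of muscle) at 1860 and 425 in the same pair of libraries, against 227 to 534 and 27.6 to 64.6 in the other 10. The part of muscle RNA in the values of other members was not tested.

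**Figure D2:**
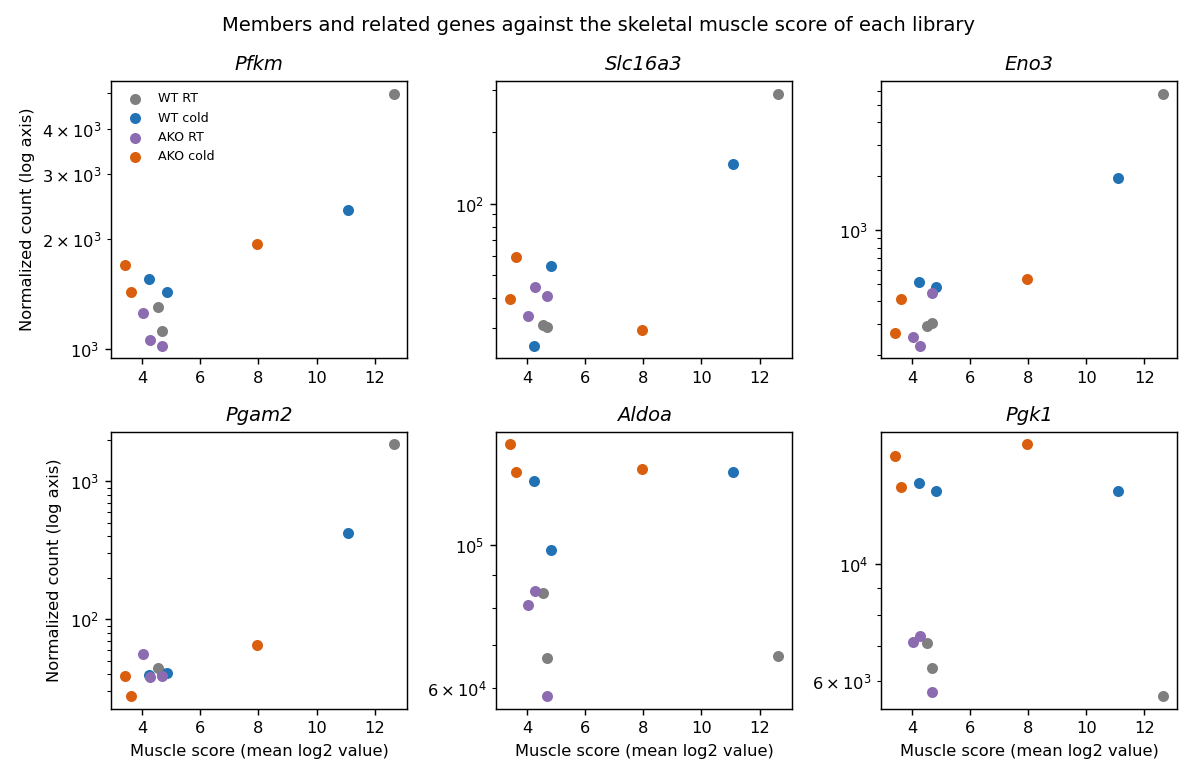
Normalized count (y axis, log scale) of the members Pfkm, Slc16a3, Aldoa and Pgk1 and of the related genes Eno3 and Pgam2 against the skeletal muscle score (x axis, mean log2 value of 7 markers), with 1 point per library in the colour of its group. Pfkm, Slc16a3, Eno3 and Pgam2 are highest in the library with a score of 12.65, and Pgk1 is lowest there.

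The bifunctional PFKFB enzymes make and remove fructose 2,6-bisphosphate, an activator of phosphofructokinase. Pfkfb3, the isoform with the highest kinase activity, was at 22544 to 30822 at RT and 31802 to 44445 after cold exposure, without overlap. Pfkfb3 had a log2 fold change of 0.46 ± 0.14 in Atf4WT iWAT (adjusted p = 0.0267) and 0.53 ± 0.14 in Atf4AKO iWAT (adjusted p = 0.0177). Its call was lost without Atf4WT RT replicate 1 or 2 or Atf4WT cold replicate 0 or 1 (adjusted p = 0.0721 to 0.0927) and without Atf4AKO RT replicate 0 or Atf4AKO cold replicate 2 (adjusted p = 0.0613 to 0.0627). Pfkfb1, the liver and muscle isoform, was at 2332, 2134 and 2247 at RT and 3357, 3021 and 2586 after cold exposure in Atf4WT iWAT. Its log2 fold change was 0.41 ± 0.12 in Atf4WT iWAT (adjusted p = 0.0234) and 0.38 ± 0.12 in Atf4AKO iWAT (adjusted p = 0.0366), and the calls were lost without Atf4WT RT replicate 1 or 2 or Atf4WT cold replicate 0 or 1 (adjusted p = 0.0507 to 0.0811) and without Atf4AKO RT replicate 0 or Atf4AKO cold replicate 0, 1 or 2 (adjusted p = 0.0752 to 0.13). Pfkfb2, the heart isoform, stayed within 719 to 955 and did not pass the test, with a log2 fold change of -0.015 ± 0.094 in Atf4WT iWAT (adjusted p = 0.922) and 0.16 ± 0.094 in Atf4AKO iWAT (adjusted p = 0.238).

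In lower glycolysis, Pgk1 and Pgam1 gave the largest differences among the 6 tested members in both genotypes. Pgk1, phosphoglycerate kinase, which makes the first ATP of the pathway (chrX:106187100-106203699, plus strand), was at 6355, 7100.3 and 5627 in Atf4WT iWAT at RT and 13739, 14228 and 13704 after cold exposure. It was at 7305, 7124 and 5729 at RT and 13929, 16803 and 15978 after cold exposure in Atf4AKO iWAT, and all 6 cold-exposed libraries lay above all 6 RT libraries. The log2 fold change was 1.13 ± 0.12 in Atf4WT iWAT (adjusted p = 0.000108) and 1.22 ± 0.12 in Atf4AKO iWAT (adjusted p = 8.37e-05), which is 2.19-fold and 2.32-fold. Pgam1, phosphoglycerate mutase (chr19:41911923-41918660, plus strand), was at 3204, 3512 and 2447 in Atf4WT iWAT at RT and 6274, 6464 and 6329 after cold exposure. It was at 3525, 3908 and 2747 at RT and 6418, 8300.1 and 7433 after cold exposure in Atf4AKO iWAT, and all 6 cold-exposed libraries lay above all 6 RT libraries. For Pgam1 the log2 fold change was 1.07 ± 0.15 in Atf4WT iWAT (adjusted p = 0.000714) and 1.13 ± 0.15 in Atf4AKO iWAT (adjusted p = 0.000626). The cold libraries of Atf4WT lay close together for both genes, while their RT libraries spread more widely.

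Eno1, the ubiquitous enolase, was at 21462, 25342 and 16041 in Atf4WT iWAT at RT and 40556, 35889.9 and 34018 after cold exposure. It was at 35125, 26923 and 20742 at RT and 41524, 36619 and 46717 after cold exposure in Atf4AKO iWAT, with all cold values above all RT values within each genotype. Eno1 had a log2 fold change of 0.83 ± 0.21 in Atf4WT iWAT (adjusted p = 0.0112) and 0.62 ± 0.21 in Atf4AKO iWAT (adjusted p = 0.0472). The call in Atf4WT iWAT was lost without the pair of libraries of highest muscle score (adjusted p = 0.0932), and that in Atf4AKO iWAT without Atf4AKO RT replicate 1 or 2 or Atf4AKO cold replicate 0, 1 or 2 (adjusted p = 0.0628 to 0.155). Gapdh, glyceraldehyde 3-phosphate dehydrogenase, often a reference gene, was at 40743, 45918 and 34607 in Atf4WT iWAT at RT and 62326, 56565 and 55059 after cold exposure. It was at 54997, 45749 and 31801 at RT and 62018, 60445 and 76410.1 after cold exposure in Atf4AKO iWAT, so that all 6 cold-exposed libraries lay above all 6 RT libraries. For Gapdh the log2 fold change was 0.53 ± 0.20 in Atf4WT iWAT (adjusted p = 0.0612) and 0.61 ± 0.20 in Atf4AKO iWAT (adjusted p = 0.0405), and the latter call was lost without Atf4AKO RT replicate 1 or 2 or Atf4AKO cold replicate 0, 1 or 2 (adjusted p = 0.0611 to 0.126). The interaction of Gapdh was not called (adjusted p = 0.999). Pkm, pyruvate kinase, was at 17299 to 32357 at RT and 26374 to 30225 after cold exposure and did not pass the test, with a log2 fold change of 0.26 ± 0.19 in Atf4WT iWAT (adjusted p = 0.335) and 0.30 ± 0.19 in Atf4AKO iWAT (adjusted p = 0.276). Eno2, the neuronal enolase, was at 61.4 to 202 normalized counts, and its log2 fold change was 0.81 ± 0.31 in Atf4WT iWAT (adjusted p = 0.0649) and 0.22 ± 0.31 in Atf4AKO iWAT (adjusted p = 0.623). Reads of Gapdh, Pgk1, Ldha and Eno1 can also match processed copies elsewhere in the genome, and uniquely mapped reads alone were counted; what this does to their levels was not tested.

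At the branch between lactate and pyruvate, Ldhb rose while Ldha did not pass the test. Ldhb, the heart-type subunit of lactate dehydrogenase (chr6:142490249-142507957, minus strand), was at 3578, 4107 and 2630.4 in Atf4WT iWAT at RT and 8318, 9431 and 7661 after cold exposure. It was at 3167, 4001 and 2690.4 at RT and 7184, 11718 and 8869 after cold exposure in Atf4AKO iWAT, and all 6 cold-exposed libraries lay above all 6 RT libraries. Ldhb had a log2 fold change of 1.32 ± 0.21 in Atf4WT iWAT (adjusted p = 0.00113) and 1.48 ± 0.21 in Atf4AKO iWAT (adjusted p = 0.000721), which is 2.5-fold and 2.8-fold. Ldha, the muscle-type subunit (chr7:46841475-46855627, plus strand), was at 43665, 52724 and 39660.2 in Atf4WT iWAT at RT and 56990.2, 49317 and 46112 after cold exposure. It was at 59309, 54026 and 41872 at RT and 55814, 51386 and 60579 after cold exposure in Atf4AKO iWAT, and the groups overlapped in both genotypes. For Ldha the log2 fold change was 0.17 ± 0.16 in Atf4WT iWAT (adjusted p = 0.461) and 0.12 ± 0.16 in Atf4AKO iWAT (adjusted p = 0.607), with 95% intervals of -0.19 to 0.53 and -0.24 to 0.49. The promoter sequences above hold ACGTG at 3 places for Ldha and at 0 for Ldhb. Ldhd, which acts on D-lactate in mitochondria, was at 1317 to 2104 and did not pass the test, with a log2 fold change of -0.16 ± 0.16 in Atf4WT iWAT (adjusted p = 0.496) and 0.011 ± 0.16 in Atf4AKO iWAT (adjusted p = 0.965).

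Slc16a1, which encodes the monocarboxylate transporter MCT1 (chr3:104638668-104658462, plus strand), rose in both genotypes. Its log2 fold changes and those of Ldhb were the highest of the 33 tested members, and which of the pair was higher turned with the alternative in each genotype. It was at 2835, 1974 and 2038 in Atf4WT iWAT at RT and 7144, 5833 and 6701 after cold exposure. It was at 3039, 2098 and 2965 at RT and 6311, 9055 and 7502 after cold exposure in Atf4AKO iWAT, and all 6 cold-exposed libraries lay above all 6 RT libraries. Slc16a1 had a log2 fold change of 1.54 ± 0.18 in Atf4WT iWAT (adjusted p = 0.000267) and 1.501 ± 0.18 in Atf4AKO iWAT (adjusted p = 0.000352), which is 2.9-fold and 2.83-fold. Mpc2, a subunit of the mitochondrial pyruvate carrier (chr1:165460637-165481214, plus strand), was at 8533, 8937 and 5196 in Atf4WT iWAT at RT and 19476, 17238 and 16476 after cold exposure. It was at 11022, 10992 and 7556 at RT and 19457, 21243 and 20755 after cold exposure in Atf4AKO iWAT, and all 6 cold-exposed libraries lay above all 6 RT libraries. For Mpc2 the log2 fold change was 1.27 ± 0.20 in Atf4WT iWAT (adjusted p = 0.00116) and 1.08 ± 0.20 in Atf4AKO iWAT (adjusted p = 0.00326). Slc16a3, which encodes MCT4, the lactate exporter of glycolytic muscle, was at 30.3, 30.8 and 289 in Atf4WT iWAT at RT and 146, 25.3 and 54.6 after cold exposure. Its highest values were again those of the libraries with the highest muscle score, and it did not pass the test, with a log2 fold change of -0.14 ± 0.81 in Atf4WT iWAT (adjusted p = 0.913) and 0.059 ± 0.81 in Atf4AKO iWAT (adjusted p = 0.963).

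**Figure D3:**
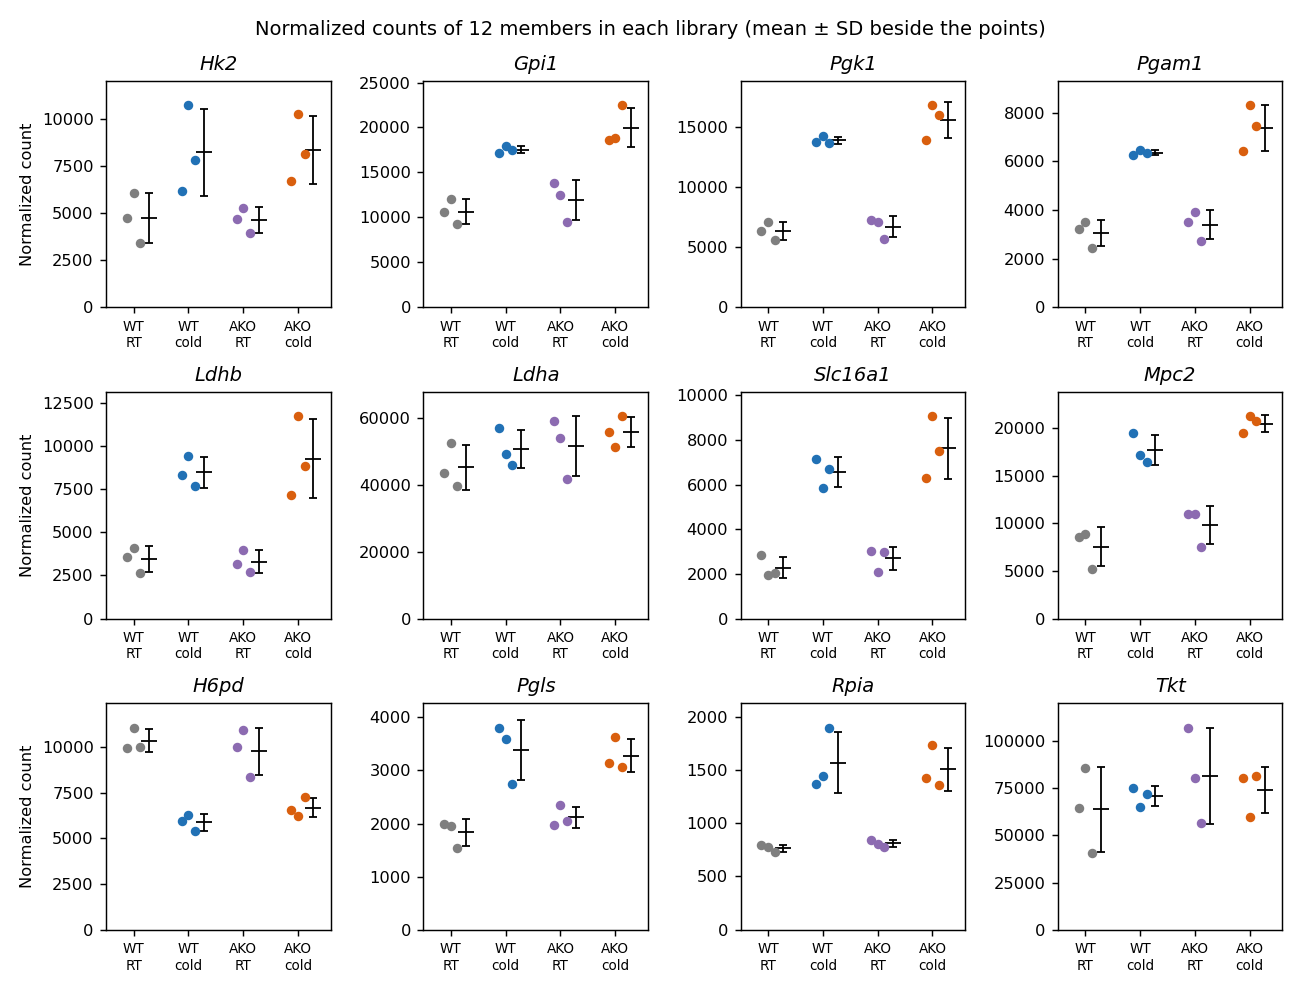
Normalized count (y axis, from 0) of 12 members in each of the 12 libraries, grouped by genotype and temperature (x axis), with 1 point per library and the mean ± SD beside the points. Hk2, Gpi1, Pgk1, Pgam1, Ldhb, Slc16a1, Mpc2, Pgls and Rpia are higher in all 6 cold-exposed libraries than in all 6 RT libraries, H6pd is lower in all 6, and the groups of Ldha and Tkt overlap.

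Of the oxidative pentose phosphate enzymes, Pgls rose and H6pd fell in both genotypes. H6pd, the hexose 6-phosphate dehydrogenase that makes NADPH inside the endoplasmic reticulum (chr4:149979475-150009023, minus strand), was at 9951, 11057 and 9999.7 in Atf4WT iWAT at RT and 5953, 6265 and 5381 after cold exposure. It was at 9984, 10924 and 8340.3 at RT and 6553, 6246 and 7253 after cold exposure in Atf4AKO iWAT, so that all 6 cold-exposed libraries lay below all 6 RT libraries. H6pd had a log2 fold change of -0.82 ± 0.11 in Atf4WT iWAT (adjusted p = 0.000451) and -0.54 ± 0.11 in Atf4AKO iWAT (adjusted p = 0.00479), which is 0.567 and 0.689 times the RT level. Its interaction was not called (log2 difference 0.28 ± 0.15, unadjusted p = 0.0941, adjusted p = 0.847 in limma), although its unadjusted p was the smallest of the members. Pgls, which hydrolyses 6-phosphogluconolactone, was at 1999, 1963 and 1534 in Atf4WT iWAT at RT and 3808, 3589 and 2739 after cold exposure. It was at 1969.7, 2341 and 2043 at RT and 3147, 3630.2 and 3067 after cold exposure in Atf4AKO iWAT, and all 6 cold-exposed libraries lay above all 6 RT libraries. For Pgls the log2 fold change was 0.88 ± 0.14 in Atf4WT iWAT (adjusted p = 0.00123) and 0.63 ± 0.14 in Atf4AKO iWAT (adjusted p = 0.00809).

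G6pdx, the cytosolic glucose 6-phosphate dehydrogenase and first enzyme of the pathway, was at 7181, 8392 and 5586 in Atf4WT iWAT at RT and 8486, 8611 and 8671 after cold exposure. It was at 8257, 8144 and 5521 at RT and 10006, 8797 and 10615 after cold exposure in Atf4AKO iWAT, and all 6 cold-exposed libraries lay above all 6 RT libraries, by as little as 8486 over 8392. It did not pass the test, with a log2 fold change of 0.30 ± 0.17 in Atf4WT iWAT (adjusted p = 0.194) and 0.44 ± 0.17 in Atf4AKO iWAT (adjusted p = 0.0773). Pgd, which makes the second NADPH of the arm, was at 16353, 19762 and 11089 in Atf4WT iWAT at RT and 24188, 20901 and 25751 after cold exposure. Its log2 fold change was 0.62 ± 0.25 in Atf4WT iWAT (adjusted p = 0.0773) and 0.55 ± 0.25 in Atf4AKO iWAT (adjusted p = 0.126). In both genes replicate 2 at RT was the lowest of its group in both genotypes. This held widely, since Atf4WT RT replicate 2 was the lowest of its group for 25 of 34 members (43.6% of all listed genes) and Atf4AKO RT replicate 2 for 24 of 34 (41.6% of all listed genes).

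In the non-oxidative arm, 1 of 4 members rose in both genotypes, where 11.3% of all tested genes did. Rpia, ribose 5-phosphate isomerase (chr6:70765720-70792232, minus strand), was at 792, 772 and 729.7 in Atf4WT iWAT at RT and 1368, 1441 and 1897 after cold exposure. It was at 845, 808 and 778 at RT and 1426, 1732 and 1355 after cold exposure in Atf4AKO iWAT, and all 6 cold-exposed libraries lay above all 6 RT libraries. Rpia had a log2 fold change of 1.02 ± 0.13 in Atf4WT iWAT (adjusted p = 0.000327) and 0.88 ± 0.13 in Atf4AKO iWAT (adjusted p = 0.00081). Tkt, transketolase, was at 64663, 86023 and 40857 in Atf4WT iWAT at RT and 75181, 64956 and 72208 after cold exposure, and at 107240.5, 80744 and 56753 at RT and 80400.3, 59863 and 81508 after cold exposure in Atf4AKO iWAT. Its RT libraries spanned its cold libraries in both genotypes, and its log2 fold change was 0.21 ± 0.29 in Atf4WT iWAT (adjusted p = 0.599) and -0.11 ± 0.29 in Atf4AKO iWAT (adjusted p = 0.808). Taldo1, transaldolase, was at 14719 to 25486 at RT and 22002 to 29395 after cold exposure, with a log2 fold change of 0.42 ± 0.17 in Atf4WT iWAT (adjusted p = 0.0836) and 0.23 ± 0.17 in Atf4AKO iWAT (adjusted p = 0.36). Rpe, ribulose phosphate 3-epimerase, was at 2039.8 to 2729 and 2299 to 3154, with a log2 fold change of 0.096 ± 0.14 in Atf4WT iWAT (adjusted p = 0.617) and 0.19 ± 0.14 in Atf4AKO iWAT (adjusted p = 0.323).

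Ratios of related members within a library do not depend on the scaling of libraries. They are given as log2 ratios of normalized counts, not per length, and without a test. The log2 ratio of Ldhb to Ldha was -3.61, -3.68 and -3.91 in Atf4WT iWAT at RT and -2.78, -2.39 and -2.59 after cold exposure. In Atf4AKO iWAT it was -4.23, -3.76 and -3.96 at RT and -2.96, -2.13 and -2.77 after cold exposure. The means were 0.0754 and 0.168 reads of Ldhb per read of Ldha in Atf4WT, and 0.0639 and 0.168 in Atf4AKO iWAT. Per kilobase of exons, Ldha stood at 15349 ± 1689 (SD) and Ldhb at 5395 ± 570 in Atf4WT iWAT after cold exposure. In Atf4AKO iWAT they stood at 16896 ± 1389 and 5896 ± 1460, so that Ldha remained the higher on that scale. The mean ratio of Hk2 to Hk1 was 5.22 at RT and 11.5 after cold exposure in Atf4WT, and 5.57 and 14.3 in Atf4AKO iWAT. The ratio of G6pdx to H6pd was 0.68 at RT and 1.47 after cold exposure in Atf4WT, and 0.745 and 1.47 in Atf4AKO iWAT. For these 3 pairs the ratio was higher after cold exposure than at RT in both genotypes without overlap. For Slc2a4 to Slc2a1, Eno2 to Eno1, Pfkm to Pfkl, Pfkp to Pfkl and Pfkfb1 to Pfkfb3 the cold and RT ratios overlapped in both genotypes. Slc16a3 to Slc16a1 and Aldoc to Aldoa overlapped in Atf4WT and were lower after cold exposure in Atf4AKO iWAT, with differences of -1.44 and -1.73 on the log2 scale, with few counts of Slc16a3 and Aldoc.

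**Figure D4:**
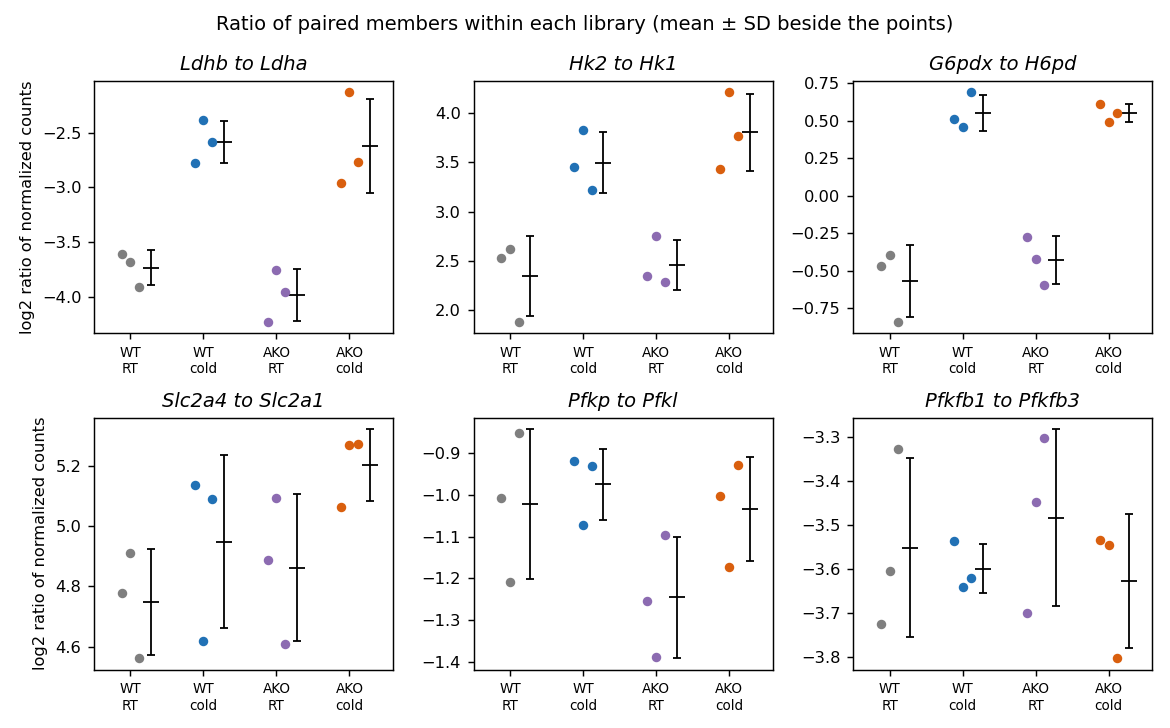
Log2 ratio of normalized counts (y axis) of 6 pairs of related members in each library, by group (x axis), with 1 point per library and the mean ± SD beside the points. For Ldhb to Ldha, Hk2 to Hk1 and G6pdx to H6pd the cold ratios lie above the RT ratios in both genotypes, and the y axes do not start at 0.

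Whether loss of Atf4 in adipocytes altered these genes was asked by comparing Atf4AKO with Atf4WT iWAT at each temperature. After cold exposure 0 of 33 members passed the test in limma, where 0.0298% of all tested genes did, and 0 members had an unadjusted p under 0.05, where 11.7% of all genes did. At RT 0 members were called (0.00746% of all genes) and 0 had an unadjusted p under 0.05 (1.53%). The difference of the cold responses between the genotypes (the interaction) gave 0 members (0% of all genes) and 0 at an unadjusted p under 0.05 (6.92%). At the threshold of the study, applied to the limma results, 0 members passed after cold exposure, at RT and in the interaction, where 6.4%, 0.463% and 4.63% of all genes did. With edgeR and DESeq2 on the recovered reads, 0 members were called in each of these 3 comparisons, while DESeq2 called 29 higher and 562 lower genes of all in the comparison after cold exposure. The median log2 fold change of the members in Atf4AKO against Atf4WT was 0.14 after cold exposure and 0.084 at RT, against 0.046 and 0.0056 over all tested genes, and the median of the interaction was 0.044, against 0.035.

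The 5 members with the smallest p-values in each of these comparisons had the following values. After cold exposure, the log2 fold change of Hk1 was -0.27 ± 0.14 (unadjusted p = 0.0795, adjusted p = 0.488 in limma). Its values were 565, 756 and 841 in Atf4WT and 619.7, 556 and 596 in Atf4AKO iWAT. The next were Eno2 at -0.58 ± 0.31, H6pd at 0.19 ± 0.11, Ldhd at 0.28 ± 0.16 and Pgk1 at 0.16 ± 0.12, with unadjusted p-values of 0.0855 to 0.197 in limma. At RT the smallest p-values were those of Mpc2, at 0.40 ± 0.20 (unadjusted p = 0.0701, adjusted p = 1 in limma), Pfkl at 0.33 ± 0.16, Eno1 at 0.39 ± 0.21, Pfkm at -0.81 ± 0.45 and Pgls at 0.21 ± 0.14. In the interaction they were those of H6pd, Eno2, Pfkfb2, Pgls and Pfkm, with log2 differences of 0.28 ± 0.15, -0.59 ± 0.43, 0.17 ± 0.13, -0.25 ± 0.20 and 0.76 ± 0.63. After cold exposure 4 members had all Atf4AKO libraries above all Atf4WT libraries, namely Gpi1, Pfkp, Aldoa and G6pdx, where 8.68% of all tested genes did, and their log2 fold changes were 0.18 ± 0.14, 0.11 ± 0.10, 0.21 ± 0.19 and 0.19 ± 0.17. At RT 0 members were without overlap in either direction (3.32% and 2.98% of all genes).

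The 95% intervals come from the limma fit without a covariate and give the size of difference that the spread between replicates leaves possible. They do not allow for the difference in lymphocyte markers between Atf4WT and Atf4AKO cold iWAT. After cold exposure they lay within a 2-fold difference in either direction for 30 of 33 members, the others being Pfkm, Eno2 and Slc16a3, and within 1.5-fold for 21. At RT they lay within 2-fold for 31 members, all but Pfkm and Slc16a3, and in the interaction for 29, all but Pfkm, Eno2, Slc16a3 and Tkt. For Ldhb the log2 difference after cold exposure had an interval of -0.35 to 0.56, for Slc16a1 -0.20 to 0.61, for Mpc2 -0.23 to 0.65, for Pgk1 -0.097 to 0.42 and for G6pdx -0.19 to 0.56. With the lymphocyte score as a covariate the median of the members in this comparison was -0.20 in place of 0.14. The log2 difference of Pgk1 was then -0.15, outside the interval given above. The part of other cell types in these values was not tested.

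**Figure D5:**
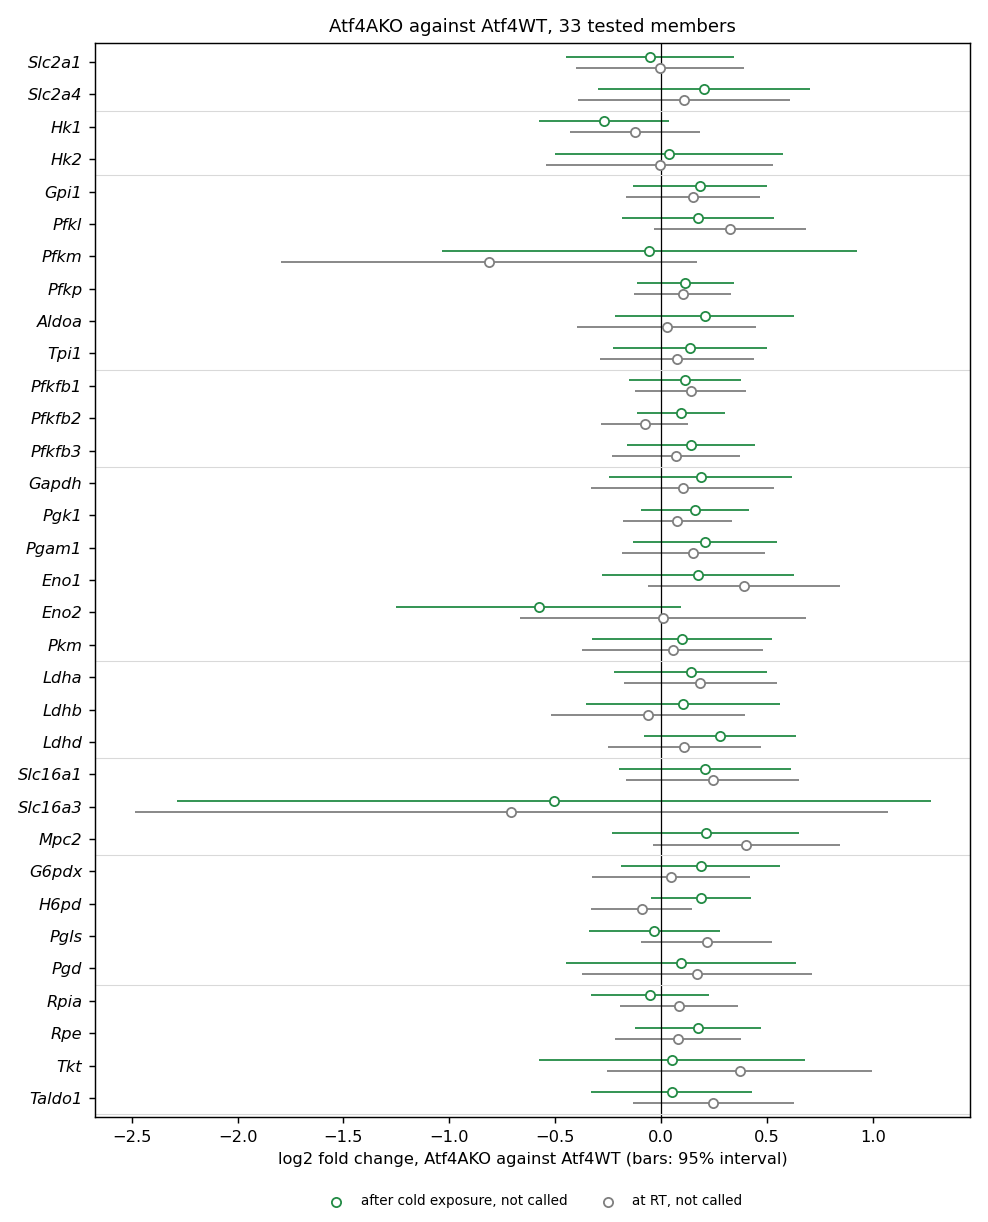
Log2 fold change of Atf4AKO against Atf4WT (x axis) for the 33 tested members (y axis, in the order of the pathway), with green points after cold exposure, grey points at RT and bars for the 95% interval. All points are open because 0 members passed an adjusted p of 0.05, and the bars of Pfkm and Slc16a3 are the widest.

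Genes of the same pathways that are not members were taken from a fixed list of 35, of which 27 have values and 26 were tested. In Atf4WT iWAT 3 rose (11.5%, where 17% of all genes did) and 4 fell (15.4%, against 14.9%), and in Atf4AKO iWAT 4 rose (15.4%, against 14.8%) and 4 fell (15.4%, against 11%), shares near those of all genes, with medians of 0.015 and -0.033 on the log2 scale. Tigar, a fructose 2,6-bisphosphatase that diverts glucose to the pentose phosphate pathway, was at 327 to 422 at RT and 535 to 687 after cold exposure, with a log2 fold change of 0.68 ± 0.12 in Atf4WT iWAT (adjusted p = 0.00184) and 0.78 ± 0.12 in Atf4AKO iWAT (adjusted p = 0.00111). Adpgk, which phosphorylates glucose with ADP, had a log2 fold change of 0.31 ± 0.073 in Atf4WT iWAT (adjusted p = 0.00811) and 0.28 ± 0.073 in Atf4AKO iWAT (adjusted p = 0.0176), and the latter call was lost without Atf4AKO RT replicate 2 (adjusted p = 0.0541). Prps1, which turns ribose 5-phosphate into the nucleotide precursor PRPP, fell in both genotypes. It was at 3097 to 4602 at RT and 1996 to 2941 after cold exposure, with a log2 fold change of -0.77 ± 0.14 in Atf4WT iWAT (adjusted p = 0.00253) and -0.74 ± 0.14 in Atf4AKO iWAT (adjusted p = 0.00351). The minor glucose transporters Slc2a12 and Slc2a10 also fell in both genotypes, with log2 fold changes of -1.52 ± 0.24 in Atf4WT iWAT (adjusted p = 0.00122) and -0.88 ± 0.24 in Atf4AKO iWAT (adjusted p = 0.023) for Slc2a12 and -1.21 ± 0.25 in Atf4WT iWAT (adjusted p = 0.00488) and -0.89 ± 0.25 in Atf4AKO iWAT (adjusted p = 0.0254) for Slc2a10. In Atf4AKO iWAT the call of Slc2a12 was lost without Atf4AKO RT replicate 0, 1 or 2 or Atf4AKO cold replicate 0 (adjusted p = 0.0528 to 0.0693) and that of Slc2a10 without Atf4AKO RT replicate 0 or Atf4AKO cold replicate 1 (adjusted p = 0.0942 to 0.105). Slc16a7, which encodes the high-affinity monocarboxylate transporter MCT2, fell in Atf4WT iWAT, with a log2 fold change of -0.72 ± 0.15 in Atf4WT iWAT (adjusted p = 0.00483) and -0.40 ± 0.15 in Atf4AKO iWAT (adjusted p = 0.0705). With the lymphocyte score as a covariate the calls in Atf4WT iWAT were lost for Adpgk (adjusted p = 0.151), Prps1 (adjusted p = 0.130), Slc2a12 (adjusted p = 0.0988), Slc2a10 (adjusted p = 0.0749) and Slc16a7 (adjusted p = 0.315), and the log2 fold change of Slc16a7 was then -0.34. Fewer genes of all kinds were called in Atf4WT iWAT with this covariate, 13.6% of all tested genes in place of 31.9%. The other genes called were Rbks (higher in both genotypes), Gapdhs (higher in Atf4AKO iWAT) and Prps2 (lower in Atf4AKO iWAT), chosen for naming after their values were seen. Each lost its call with 1 library left out. For Rbks these were Atf4WT RT or cold replicate 2 (adjusted p = 0.0543 to 0.0667) and Atf4AKO RT replicate 2 or cold replicate 1 (adjusted p = 0.0537 to 0.057). For Gapdhs they were Atf4AKO RT replicate 0 or cold replicate 1 (adjusted p = 0.0573 to 0.0601), and for Prps2 any Atf4AKO library (adjusted p = 0.053 to 0.137). Both Rpia, given above, and Prps1 act on ribose 5-phosphate, and they moved in opposite directions.

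Of 10 other enzymes that make NADPH, 1 rose (10%, where 17% of all genes did) and 2, Idh2 and Aldh1l2, fell (20%, against 14.9%) in Atf4WT iWAT, and 0 rose (14.8% of all genes) and 1 fell (10%, against 11%) in Atf4AKO iWAT. Idh2, the mitochondrial isocitrate dehydrogenase, was at 4967 to 6083 at RT and 3218 to 3953 after cold exposure, with a log2 fold change of -0.75 ± 0.093 in Atf4WT iWAT (adjusted p = 0.000327) and -0.58 ± 0.093 in Atf4AKO iWAT (adjusted p = 0.00151). Mthfd2, a mitochondrial folate enzyme that makes NADH or NADPH, was at 261, 536 and 391 in Atf4WT and 141, 59 and 83.8 in Atf4AKO iWAT after cold exposure, with a log2 fold change between genotypes of -2.08 ± 0.33 (adjusted p = 0.0648 in limma and 2.16e-06 to 0.999 over the alternatives). Its rise after cold exposure in Atf4WT iWAT (log2 fold change 1.21 ± 0.33, adjusted p = 0.0179) was lost without Atf4WT RT replicate 2 or Atf4WT cold replicate 1 (adjusted p = 0.0513 to 0.0711), and with the lymphocyte score as a covariate it was 0.61 (adjusted p = 0.471). The call of Aldh1l2, a mitochondrial folate dehydrogenase named after its values were seen, was lost with the same covariate (adjusted p = 0.0772). Of all tested genes, 10.1% rose and 3.51% fell in Atf4WT iWAT with that covariate, in place of 17% and 14.9%. Over the 4 oxidative pentose phosphate members, Atf4AKO against Atf4WT after cold exposure gave log2 fold changes of -0.032 to 0.19. Of 9 regulators of glycolytic genes, 2 rose in both genotypes (22.2%, where 11.3% of all genes did). Mlxipl, which encodes the glucose-sensing factor ChREBP, was at 2854 to 4227 at RT and 6057 to 9369 after cold exposure, with a log2 fold change of 1.04 ± 0.18 in Atf4WT iWAT (adjusted p = 0.00172) and 1.19 ± 0.18 in Atf4AKO iWAT (adjusted p = 0.000977). The call of Mlxipl in Atf4WT iWAT was lost with the lymphocyte score as a covariate (log2 fold change 0.68, adjusted p = 0.125). Mlx, its partner, had a log2 fold change of 1.19 ± 0.22 in Atf4WT iWAT (adjusted p = 0.00265) and 1.11 ± 0.22 in Atf4AKO iWAT (adjusted p = 0.00438). Hif1a, the hypoxia-inducible factor, had a log2 fold change of 0.19 ± 0.14 in Atf4WT iWAT (adjusted p = 0.341) and 0.32 ± 0.14 in Atf4AKO iWAT (adjusted p = 0.115) and did not pass the test.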

How the data were processed

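RNA of iWAT was extracted with TRIzol and sequenced from strand-specific polyA libraries. Per the study's methods, the authors cleaned reads (SOAPnuke), aligned them (STAR, mm10) and counted uniquely aligned ones per gene (featureCounts), then divided the counts by DESeq2 size factors in pyDESeq2. Tool versions and the strand setting are not given in the sources used here. The deposited values are this normalized signal. Each library's lowest value was taken as 1 read, and on that scale 100% of values were whole within 0.01 reads, with a largest deviation of 0.000313. All 12 libraries were used.

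Tests were two-sided and used limma 3.58.1 (R 4.3.3), with lmFit and eBayes with trend, on log2(normalized count + 1) with 4 group means and no covariate, over genes with a mean of at least 10, with Benjamini-Hochberg adjustment. Fold changes are on this scale and understate low genes. The ± after a log2 fold change is the standard error. Alternatives were pseudocounts of 0.5 and 5, no filter and a filter at 50, scaling to the 75th percentile, a replicate block, lymphocyte and muscle scores as covariates, a fit of only the groups compared, edgeR 4.0.16 and DESeq2 1.42.0 on recovered reads, the threshold of the study, and leaving out each library, and, chosen after seeing the data, leaving out the pair of libraries of highest muscle score. All members with a row are named. Other pathway genes are described where called, at most 6 by smallest p, and Rbks, Gapdhs, Prps2, Eno3, Pgam2 and Emb were named after their values were seen. The members, lists and promoters were chosen with earlier results of these data known. Exon positions came from GENCODE M21 and promoters from RefSeq (33 of 34 members matched). The test was run on simulated reads, where only the direction of changes of 3-fold or more was required to be right. This says little about smaller changes. Python 3.11.15 with pandas 2.3.3 did the rest. The labels call the libraries biological replicates. Each p-value of the main test rests on the spread between replicates within groups, with 1 estimate per gene shared by all 4 groups of 3. The standard error of a gene is therefore the same in both genotypes. At this depth the number of libraries limits the precision more than counting does. One gene of the other pathway genes is not reported here.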

Additional observations from a re-analysis of the deposited data

How the results depend on the processing

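Of the calls after cold exposure, those of 8 members (Gpi1, Pgk1, Pgam1, Ldhb, Slc16a1, Mpc2, Pgls and Rpia) held under all 19 alternatives in each genotype, whereas Hk2, Pfkl, Pfkfb1, Pfkfb3, Tpi1, Aldoa, Eno1, Gapdh, Hk1 and, at the threshold of the study, Pfkp and H6pd lost a call in at least one. The counts of members called between genotypes and in the interaction were 0 under every alternative, while all genes called numbered 0 to 591 after cold exposure, 1 to 4 at RT and 0 to 267 in the interaction. After cold exposure, against 4, they were 591 with DESeq2, 553 without the pair of highest muscle score, 515 without Atf4WT cold replicate 0, 189 with the replicate block and 146 without Atf4WT RT replicate 2. The count of members that rose in Atf4WT iWAT was 10 to 14 with 1 library left out (11.5 to 15.3% of all genes rose), against 16. It was 10 without the pair of libraries of highest muscle score (12.6%). In Atf4AKO iWAT it was 10 to 14 with 1 library left out (9.77 to 13.9%), against 16. The count that fell in Atf4WT iWAT was 1 to 2 with 1 library left out (10 to 13.4% of all genes), and 2 with the lymphocyte score (3.51%). In Atf4AKO iWAT it was 1 to 2 (6.24 to 9.78%), and 0 at the threshold of the study (8.92%). The median of the members moved to 0.80 with the lymphocyte score and 0.33 without the libraries of highest muscle score in Atf4WT iWAT, to -0.20 with the lymphocyte score for Atf4AKO against Atf4WT after cold exposure, and to -0.30 with it in the interaction. The cause was not tested.

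Members that were not called changed sign in some settings, all uncalled there too. Over the fits with 1 library left out in turn, the log2 fold change after cold exposure in Atf4WT iWAT ranged from -0.062 to 0.26 for Slc2a1, -0.55 to 0.53 for Pfkm, -0.055 to 0.030 for Pfkfb2, -0.79 to 0.93 for Slc16a3, -0.017 to 0.18 for Rpe and -0.078 to 0.46 for Tkt. In Atf4AKO iWAT it ranged from -0.013 to 0.15 for Slc2a1, -0.021 to 0.23 for Ldha, -0.17 to 0.12 for Ldhd, -0.20 to 0.29 for Slc16a3 and -0.35 to 0.11 for Tkt. Without the pair of highest muscle score the values in Atf4WT iWAT were 0.30 for Pfkm, -0.0089 for Ldha, 0.28 for Slc16a3, -0.032 for Rpe and -0.12 for Tkt. They were 0.030 for Pfkfb2 with the lymphocyte score and 0.015 for Slc16a3 with the muscle score. In Atf4AKO iWAT, Ldhd gave -0.054 after 75th percentile scaling, -0.0089 with edgeR and -0.0052 with DESeq2, and Slc16a3 gave -0.0047 after scaling and -0.13 with the muscle score. For Atf4AKO against Atf4WT after cold exposure, Hk1 gave 0.13 and Pgk1 -0.15 with the lymphocyte score. Some cold responses that were not called above were called in 1 to 3 of the 19 alternatives. Over the alternatives, the lowest adjusted p in Atf4WT iWAT was 0.0317 for Hk1, 0.019 for Gapdh, 0.0404 for Eno2, 0.0449 for Pgd and 0.0103 for Taldo1. In Atf4AKO iWAT it was 0.00968 for Pfkm and 0.0443 for G6pdx.

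The replicate numbers were not taken to pair the samples, since not every pair was over 0.1: correlations of deviations between same-numbered samples ran from -0.18 to 0.10 for replicate 0, 0.18 to 0.39 for replicate 1 and -0.19 to 0.37 for replicate 2. With the replicate block 17 members rose (19% of all genes) and 1 fell (17.2%) in Atf4WT iWAT, and 16 rose (16.7%) and 2 fell (14.1%) in Atf4AKO iWAT.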

Other observations

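Emb, which encodes embigin, a partner of monocarboxylate transporters, was at 292, 345 and 454 normalized counts in Atf4WT and 302, 87.3 and 265 in Atf4AKO iWAT after cold exposure, with a log2 fold change of Atf4AKO against Atf4WT of -0.90 ± 0.39 (adjusted p = 0.392 in limma) and the groups overlapping.

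Txnip, a glucose-responsive inhibitor of glucose uptake, was named after its values were seen. It stood at 51341 in Atf4WT RT replicate 2 and 53574 in Atf4AKO RT replicate 2, against 15583 to 30282 in the other 10 libraries. These are the RT libraries in which 25 and 24 of the 34 members had the lowest value of their group, as did 43.6% and 41.6% of all listed genes. A link between Txnip and these values was not tested. The log2 fold change of Txnip after cold exposure was -0.55 ± 0.40 in Atf4WT iWAT (adjusted p = 0.311) and -0.54 ± 0.40 in Atf4AKO iWAT (adjusted p = 0.342).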
